A study of Mus musculus with 36 samples.

Results

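The 3 mouse embryonic fibroblast (MEF) columns headed CRE and 1 h replenished were compared with the 3 headed GFP and 1 h replenished, over all genes of the deposited MEF table. These are 6 of its 24 columns and 6 of the 36 libraries of the series, taken by column heading, with earlier results of these data known. The study asks what Vps15, the regulatory subunit of class 3 phosphoinositide 3-kinase (PI3K), does for gene expression in liver and in cultured fibroblasts. The labels describe fibroblasts of a single line with floxed Vps15 alleles that received an adenovirus carrying either GFP (genotype label WT) or CRE (genotype label Vps15KO). Both groups were, by their headings, kept without methionine for 4 h and then given it back for 1 h, and all of them carried the floxed alleles and an adenoviral vector. CRE expression therefore comes with the loss of Vps15 in this design, and the effects of each cannot be told apart. No label says whether the 3 libraries of a group came from separate cultures. The p-values judge differences against the spread between libraries within groups, estimated over all 24 MEF libraries. That spread may be technical.

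The headings admit a second reading. The labels number the MEF libraries from 1 to 24 with wild type and knockout taking turns within each medium, whereas the column headings list all 12 GFP columns before all 12 CRE columns. If the columns are in the order of the library numbers, only 6 of the 24 columns hold the group they are headed with. The columns headed GFP at 1 h, at positions 7 to 9, would then be wild-type cells deprived of methionine for 4 h. Those headed CRE at 1 h, at positions 19 to 21, would be wild-type cells deprived and then given methionine for 4 h. As headed, a CRE minus GFP difference is thus knockout minus wild type at 1 h of replenishment. By position, the same number is 4 h of replenishment minus deprivation, both in wild-type cells. The 6 columns and every value below are the same under both readings, and which one holds was not tested.

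Class 3 PI3K, made of the lipid kinase Vps34 (gene Pik3c3) and Vps15 (gene Pik3r4), produces phosphatidylinositol 3-phosphate on endosomes and autophagosomes. Methionine is converted by Mat2a to S-adenosylmethionine, the methyl donor of the cell. Cells short of an amino acid translate the transcription factor ATF4, whose targets import and make amino acids, charge tRNAs and dampen stress, and cells short of methionine are known to hold more Mat2a mRNA.

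The 6 libraries held between 20971029 and 21169626 counts, recovered from the deposited values, among 19345029 to 21245006 over all 24 MEF columns. Summed fibroblast markers lay between 15376.3 and 17386.3 CPM (counts scaled to the library's total) in the 6 libraries, with none of the 12 markers at 0 in all of them. Of the other cell types, summed epithelial markers were at 0.43 to 0.76 CPM in the CRE columns and 1.00 to 1.23 CPM in the GFP columns, and muscle markers at 2.09 to 2.57 against 3.02 to 3.69 CPM. Endothelial markers reached at most 1.56 CPM, with overlapping groups. Neural markers, which include genes that fibroblasts express, summed to 231 to 248 CPM in the CRE columns and 198 to 210 CPM in the GFP columns. Macrophage markers summed to 8.61 to 9.79 CPM against 6.53 to 8.54 CPM. The share of counts from mitochondrial genes was 1.48 to 1.56% in the CRE columns and 1.24 to 1.40% in the GFP columns. The part of these shifts in the results was not tested.

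Pik3r4 (chr9:105642995-105687655, RefSeq GRCm38.p6, the mm10 build of the submitters' notes), the gene that CRE was meant to inactivate, was not lower in the columns headed CRE. Its deposited values, which are variance-stabilized counts on a log2 scale, were 10.02, 10.04 and 10.07 in the CRE columns and 9.85, 9.96 and 9.89 in the GFP columns, from 899 to 1061 counts per library. The groups did not overlap, and CRE was higher by 0.15 (SE 0.05, 95% interval 0.04 to 0.25, limma adjusted p = 0.016). That call was lost without GFP replicate 1 (adjusted p = 0.073) or without CRE replicate 3 (adjusted p = 0.060). The values count reads over the whole gene, and which part CRE removes is not given in the sources used here, so a loss of a few exons could leave them unchanged. The CRE minus GFP difference of Pik3r4 was positive at all 4 headings, at 0.23 headed basal, 0.21 headed deprived and 0.05 headed 4 h replenished. With the columns read by position, the 4 knockout minus wild-type differences were -0.27 in basal medium, -0.17 deprived, -0.28 at 1 h and -0.27 at 4 h, with no overlap between the groups of 3 in any of the 4.

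Other genes of the class 3 PI3K complexes differed by modest amounts. Pik3c3, the kinase, differed by 0.02 (95% interval -0.08 to 0.12, limma adjusted p = 0.78). Becn1, the Beclin 1 scaffold shared by its complexes, was 0.17 higher in CRE. Atg14, the subunit of the autophagy complex, was 0.54 lower, Uvrag, that of the endosomal complex, 0.32 lower, the inhibitor Rubcn 0.30 lower and the regulator Nrbf2 0.29 lower. Of 8 tested members, 2 were higher and 4 lower past the threshold of 0.05, where 26.9% of all tested genes were higher and 28.1% lower.

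**Figure D1:**
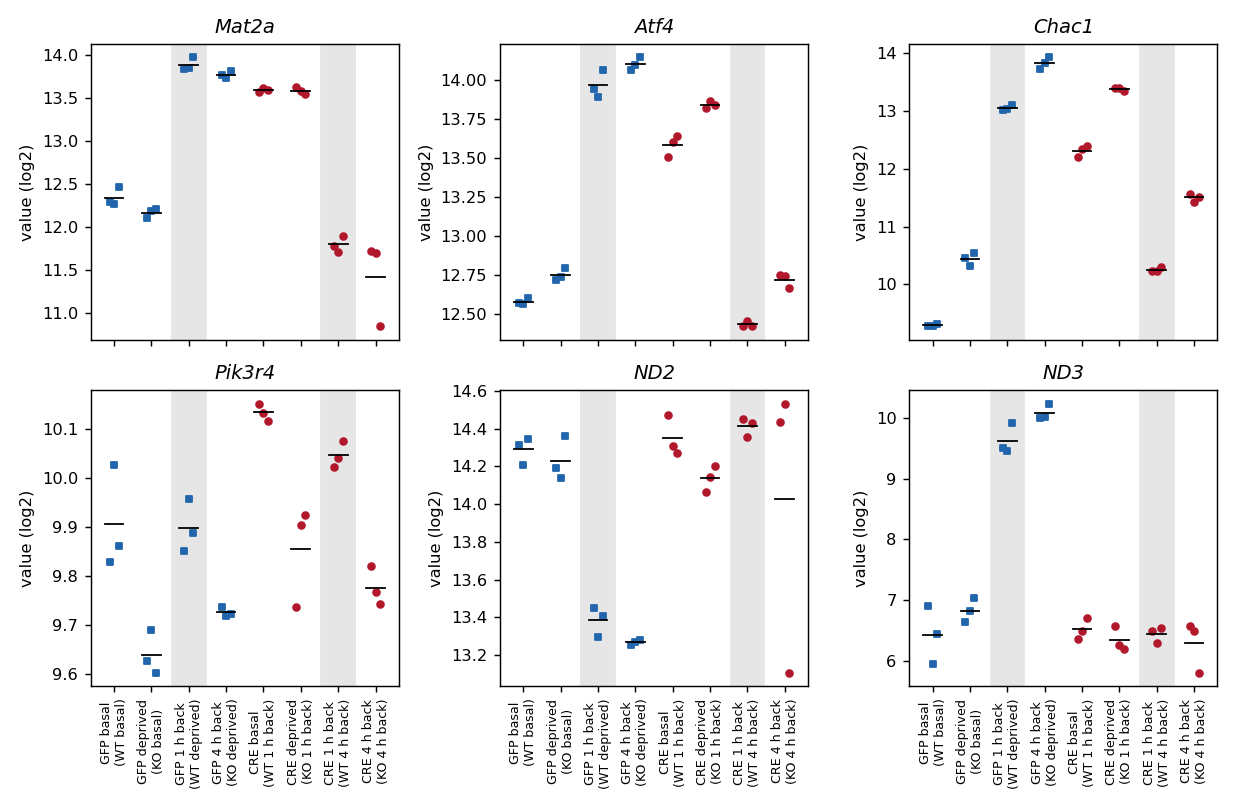
Deposited log2 values of 6 genes in the 24 MEF columns, in the order of the columns, with the heading and, in brackets, the group by position under each set of 3. Blue squares are columns headed GFP, red circles columns headed CRE, bars are means of 3, and grey bands mark the columns headed 1 h replenished. Mat2a, Atf4 and Chac1 were high in the grey GFP band and low in the grey CRE band, whereas Pik3r4 was slightly higher in CRE.

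Most tested genes differed between the groups of columns. Of 13914 tested genes, 3745 (26.9%) were higher and 3913 (28.1%) lower in CRE past a limma adjusted p of 0.05, together 55% of those tested. The counts given for gene lists are to be read beside these shares. Some genes stand in more than 1 list, so the lists are not independent of each other. Over all tested genes the median difference was 0.00 and the median size 0.19. Among the 7658 called genes the median size was 0.32, with 2625 under 0.25, 6040 under 0.5 and 7474 under 1. Large differences were mostly decreases: 162 called genes were lower by over 1 and 22 higher by over 1. With each library shifted to the same median, the split became 4903 higher and 3067 lower. In 8420 genes (60.5%) the 3 CRE values did not overlap the 3 GFP values, with CRE above in 4109 (29.5%) and below in 4311 (31%).

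Mat2a (chr6:72432796-72439556), which makes S-adenosylmethionine, was among the largest decreases. Its values were 11.79, 11.72 and 11.90 in the CRE columns and 13.83, 13.85 and 13.97 in the GFP columns, or 3391 to 3855 against 14743 to 16311 counts. All 3 CRE values lay below all 3 GFP values, and the difference was -2.08 (SE 0.15, limma adjusted p = 2.7e-09), a 4.24-fold lower level. Headed basal and deprived, CRE was instead higher than GFP, by 1.25 and 1.42, and headed 4 h it was lower by 2.35. The mean of the GFP columns headed 1 h, 13.89, was the highest of the 8 groups of columns, and that of the CRE columns headed 1 h, 11.80, the second lowest after CRE at 4 h with 11.43. The CRE columns at 4 h read 11.73, 11.70 and 10.85, so their mean and the 4 h difference lean on replicate 3.

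Of 22 tested genes of the methionine cycle and one-carbon metabolism, 4 were higher and 10 lower, with a median of -0.10. The lower ones included Mthfd2, the mitochondrial folate enzyme, at -1.42 and Cth, which makes cysteine in transsulfuration, at -1.06. Mtrr, which reactivates methionine synthase, differed by -0.50 and the mitochondrial folate carrier Slc25a32 by -0.65. In polyamine synthesis and methionine salvage 8 of 20 genes were higher and 3 lower. Mtap, the first enzyme of methionine salvage, was 0.53 higher, as were the antizymes Oaz1 (0.44) and Oaz2 (0.34), which restrain polyamine synthesis, and the spermine oxidase Smox (0.41). Azin1, which counteracts antizyme, was 0.39 lower. Of 40 histone and DNA methyltransferases, 6 were higher and 17 lower, among them Smyd5 (0.66) and the arginine methyltransferase Carm1 (0.44) higher, and Kmt5b (-0.63) and Ezh2 (-0.60), which methylate histone H4 and H3, lower.

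The genes of the ATF4 amino acid response were lower in CRE in 34 of 37 tested cases and higher in 0, with a median of -0.56. RefSeq promoters (GRCm38.p6) were found for 29 of these 34 genes, and 10 of their 35 promoters, or 28.6%, held the amino acid response element TGATGNAA on either strand within 250 bases before and 50 after the start site. It stood in 2.28% of the 13582 promoters of tested genes and in 3.97% of all 32851 promoters. The list was assembled from known ATF4 targets, so the match describes the list. Over all tested genes, with list members kept in, the letters occurred in 12 of 165 promoters (7.27%) of genes lower by over 1. They occurred in 0.962% of 416 promoters of genes higher by over 0.5, a different cutoff. The 12 include the promoters of the 5 list members printed here, so that share is not independent of the list. The promoters of 5 list members that hold the element are printed, with the element in capitals. TTGCATCA and TTACATCA are its letters read from the opposite strand.
Chac1, chr2:119350992-119351291, + strand: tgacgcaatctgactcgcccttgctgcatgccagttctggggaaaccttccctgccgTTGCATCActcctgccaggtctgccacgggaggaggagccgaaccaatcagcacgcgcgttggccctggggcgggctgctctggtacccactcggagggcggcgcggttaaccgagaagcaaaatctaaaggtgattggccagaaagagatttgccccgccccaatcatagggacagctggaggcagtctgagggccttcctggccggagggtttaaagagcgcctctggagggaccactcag
Trib3, chr2:152344011-152344310, - strand: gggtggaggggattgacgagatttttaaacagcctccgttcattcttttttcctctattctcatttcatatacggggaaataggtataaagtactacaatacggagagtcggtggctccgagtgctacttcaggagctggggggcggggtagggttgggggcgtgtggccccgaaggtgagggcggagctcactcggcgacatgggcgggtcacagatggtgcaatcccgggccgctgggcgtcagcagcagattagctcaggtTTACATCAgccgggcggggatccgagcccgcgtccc
Slc1a4, chr11:20332664-20332963, - strand: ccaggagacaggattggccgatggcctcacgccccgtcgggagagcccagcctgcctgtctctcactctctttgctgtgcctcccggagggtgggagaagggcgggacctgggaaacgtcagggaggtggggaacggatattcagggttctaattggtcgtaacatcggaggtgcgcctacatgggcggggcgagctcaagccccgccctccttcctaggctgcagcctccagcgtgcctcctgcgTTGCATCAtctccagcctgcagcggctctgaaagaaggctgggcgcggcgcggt
Atf3, chr1:191183284-191183583, - strand: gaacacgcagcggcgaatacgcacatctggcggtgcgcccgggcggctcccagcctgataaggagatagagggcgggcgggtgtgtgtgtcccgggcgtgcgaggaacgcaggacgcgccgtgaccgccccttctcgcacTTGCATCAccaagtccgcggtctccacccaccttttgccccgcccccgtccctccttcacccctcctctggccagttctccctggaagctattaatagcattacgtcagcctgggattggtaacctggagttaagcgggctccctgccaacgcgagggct
Slc7a11, chr3:50443564-50443863, - strand: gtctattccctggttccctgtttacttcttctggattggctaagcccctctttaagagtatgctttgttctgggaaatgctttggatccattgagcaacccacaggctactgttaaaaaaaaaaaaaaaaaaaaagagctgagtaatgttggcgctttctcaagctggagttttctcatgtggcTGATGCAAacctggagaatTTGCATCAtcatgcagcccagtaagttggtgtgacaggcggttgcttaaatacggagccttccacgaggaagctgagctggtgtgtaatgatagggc
In Chac1 the element starts 193 bases upstream of the start site, in Atf3 110 and in Slc1a4 4 bases upstream, and in Trib3 it starts 15 bases into the transcript. Slc7a11 holds 2 matches, 1 on each strand, the first 66 bases upstream.

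Chac1 (chr2:119351242-119354326), which degrades glutathione and is a sensitive ATF4 target, showed the largest decrease of these genes. It stood at 10.23, 10.22 and 10.29 in the CRE columns and at 13.01, 13.04 and 13.10 in the GFP columns, a difference of -2.80 (SE 0.05, limma adjusted p = 2.4e-27). Every CRE value was below every GFP value, and the level was 6.97-fold lower. Headed basal and deprived the same gene was 3.02 and 2.94 higher in CRE. Atf4 itself (chr15:80255184-80257545) read 12.42, 12.45 and 12.42 against 13.94, 13.89 and 14.06. The groups lay apart by -1.54 (SE 0.04, limma adjusted p = 8.6e-25).

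Ppp1r15a, which directs dephosphorylation of eIF2alpha, was lower by 2.59 and Sesn2, a leucine sensor that restrains mTORC1, by 2.40 on the log2 scale, and for both the groups did not overlap. The cationic amino acid transporter Slc7a1 (-2.06) and the neutral amino acid transporter Slc1a4 (-1.56) also fell, as did the genes whose promoters are printed, Trib3 (-1.76), Atf3 (-1.28) and Slc7a11 (-1.19). Of 20 cytosolic aminoacyl-tRNA synthetases, 15 were lower and 1 higher, with a median of -0.21, led by Tars (-0.55), Iars (-0.47), Cars (-0.38), Aars (-0.35) and Nars (-0.33). The unfolded protein response overlapped this pattern in part: 11 of 25 genes were lower and 2 higher, with a median of -0.04. Herpud1, an endoplasmic reticulum degradation factor, fell by 2.48, Dnajb9 by 1.23, Ero1a by 0.79 and Xbp1 by 0.66.

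**Figure D2:**
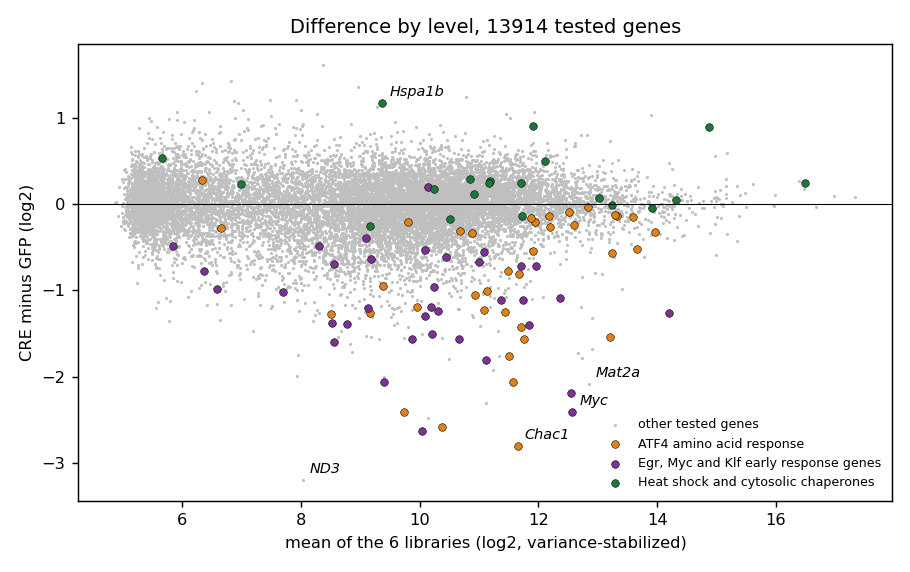
Difference CRE minus GFP (log2) against the mean of the 6 libraries (log2) for each tested gene, with 3 gene lists in colour. ATF4 response genes and early response genes lay mostly below 0, to -2.80 for Chac1 and -2.41 for Myc, and chaperones mostly above it.

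Early response genes, which growth factors and stress induce within minutes to hours, were lower almost throughout. In the list of Egr, Myc and Klf early response genes 35 of 36 were lower and 1 higher, with a median of -1.11, the lowest of the 32 lists. Myc (chr15:61985341-61990361), a transcription factor of growth, read 11.29, 11.36 and 11.42 in the CRE columns against 13.77, 13.73 and 13.81 in the GFP columns. The groups were far apart, with a difference of -2.41 (SE 0.05, limma adjusted p = 1.4e-26). Gadd45a, a stress sensor, fell by 2.63, Klf4 by 2.06, Phlda1 by 1.80 and Egr1 by 1.26. In the Fos and Jun (AP-1) family 9 of 12 were lower and 1 higher. Junb read 9.97, 9.93 and 9.99 against 12.31, 12.29 and 12.20, lower by 2.31, and Jdp2 (-1.19), Mafk (-1.06), Maff (-0.80) and Fosl2 (-0.69) were lower by less. The E-box CACGTG stood in 9 of 39 promoters (23.1%) of the lower genes of both lists against 9.77% over tested genes, and the AP-1 element TGANTCA in 5.13% against 5.37%, both counted on either strand. The lists were written by hand, so these shares describe the lists. Among all tested genes the E-box stood in 12.1% of promoters of genes lower by over 1 and 9.86% of those higher by over 0.5.

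Lists of contact and matrix signalling went the same way. Of 21 targets of YAP and TGF-beta, 13 were lower and 4 higher, with a median of -0.50, including the matricellular gene Ccn1 (-1.40). Of 24 actin and SRF-MRTF genes, 18 were lower and 2 higher, with Fhl1 at -0.98, Myl9 at -0.78 and Acta2 at -0.59, but Actb, cytoplasmic beta-actin, was 0.56 higher. Targets of FoxO and growth factor withdrawal were lower in 16 of 20 cases and higher in 3. Gadd45a, also in the early response list, was lower by 2.63, Txnip, which limits glucose uptake, by 1.73, Trp53inp1 by 1.26 and Cited2 by 0.99. For p53 targets the counts were 13 lower and 7 higher of 28, with a median of -0.05. The lower ones included Sesn2, named above (-2.40), Cdkn1a, the p21 cell cycle inhibitor (-2.03), Plk2 (-1.92) and Mdm2 (-0.77).

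Circadian clock genes were lower in 16 of 19 cases and higher in 0, with a median of -0.52. Ciart fell by 1.99, Nfil3 by 1.55, Per2 by 1.00, Bhlhe41 by 0.97 and Arntl, the Bmal1 activator, by 0.86. Nr1d1, the Rev-erb alpha repressor, read 8.64, 8.84 and 8.84 in the CRE columns and 9.33, 9.45 and 9.64 in the GFP columns. Its groups did not overlap and differed by -0.70 (SE 0.07, limma adjusted p = 3e-10). Of 21 NF-kB targets and chemokines, 11 were lower and 1 higher: Tnfaip3 fell by 1.19, Cxcl1 by 0.86 and Cxcl5 by 0.82, whereas Cx3cl1, a membrane-bound chemokine, was 1.04 higher. Interferon-stimulated genes were called lower in 11 of 40 cases, a share close to the 28.1% of all tested genes, and higher in 0, with Cxcl10 at -1.17 and Oas3 at -0.78. The inducible cyclooxygenase Ptgs2 was lower by 2.18 and Plcxd2 by 2.00.

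**Figure D3:**
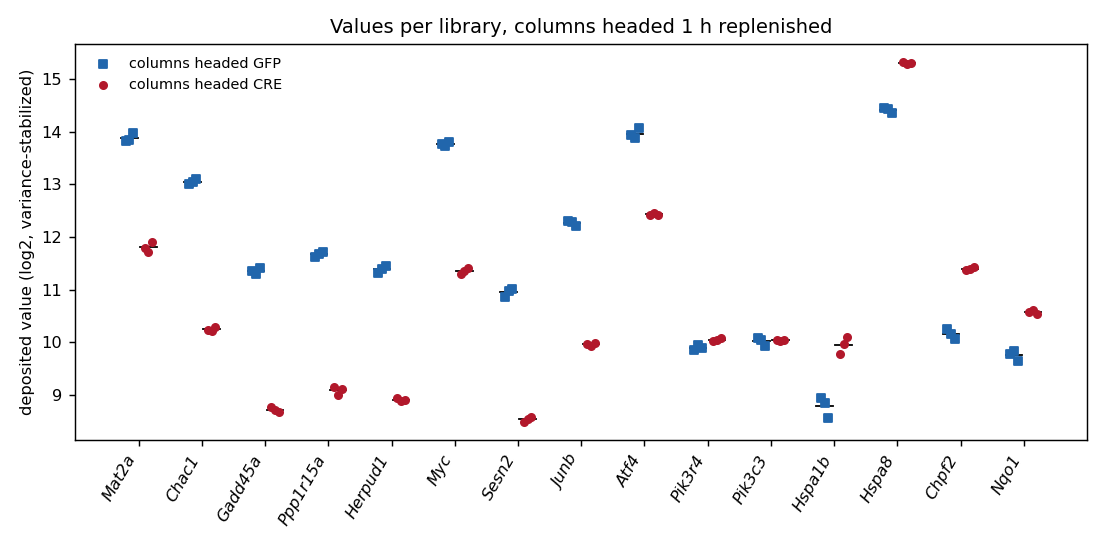
Deposited log2 values of 15 genes in each of the 6 libraries, with blue squares for columns headed GFP, red circles for columns headed CRE and bars for means of 3. The groups of 3 did not overlap for any of these genes except Pik3c3, from Chac1 (13.01 to 13.10 in GFP, 10.22 to 10.29 in CRE) to Hspa1b, where CRE lay above.

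Increases in CRE were smaller, and chaperone and antioxidant genes stood among them. In the heat shock list 12 of 20 genes were higher and 2 lower, with a median of 0.23. Hspa1b, an inducible Hsp70 (chr17:34956429-34959238), read 9.78, 9.97 and 10.11 in the CRE columns and 8.95, 8.85 and 8.56 in the GFP columns. Its groups did not overlap and CRE was higher by 1.17 (SE 0.08, limma adjusted p = 1.3e-13). Hspa1b has a near-identical neighbour in Hspa1a, and how reads that fit both were counted is not given in the sources used here. The Hsp110 gene Hsph1 rose by 0.90, the constitutive Hsc70 gene Hspa8 by 0.89, Dnaja1 by 0.50 and Hsp90ab1 by 0.24.

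Of 26 targets of NRF2, the antioxidant transcription factor, 17 were higher and 5 lower, with a median of 0.26. The quinone reductase Nqo1 read 10.58, 10.61 and 10.53 against 9.79, 9.83 and 9.65. All CRE values were above all GFP values, and the difference was 0.82 (SE 0.05, limma adjusted p = 1.1e-15). Sulfiredoxin, Srxn1 (0.73), and the pentose phosphate enzymes Pgd (0.70) and G6pdx (0.56) were also higher. Slc7a11, also in the ATF4 list, was 1.19 lower, Nfe2l2, which encodes NRF2, 0.70 lower and Hmox1, heme oxygenase, 0.41 lower. Of 54 cell cycle and replication genes 21 were higher and 10 lower, with a median of 0.06, led by the cyclins Ccnd1 (0.73), Ccne1 (0.67), Ccnb2 (0.64) and Ccnd3 (0.44) and by Tk1 (0.49). Tested replication-dependent histones were lower in 4 of 8 cases and higher in 0, at low levels and in libraries selected for poly-A RNA, which most of these transcripts lack.

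Among the 15 largest increases outside these lists was Chpf2, a chondroitin polymerizing factor (chr5:24586744-24594398). It read 11.38, 11.39 and 11.43 in the CRE columns and 10.25, 10.16 and 10.07 in the GFP columns. CRE was higher in every library, by 1.24 (SE 0.05, limma adjusted p = 6.8e-21). Pdlim2 rose by 1.00, the Wnt inhibitor Apcdd1 by 0.95, the kinase Camkk2 by 0.92, the AMP deaminase Ampd3 by 0.89, the sialyltransferase St6galnac4 by 0.85, and Rbm12 and the innate immune adaptor Sting1 by 0.83 each. D17H6S56E-5 was 1.07 higher. Rps2-ps10, at 1.35 the largest increase by the rule for named genes, is a ribosomal protein pseudogene whose reads may belong to its parent gene, so its value is uncertain.

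**Figure D4:**
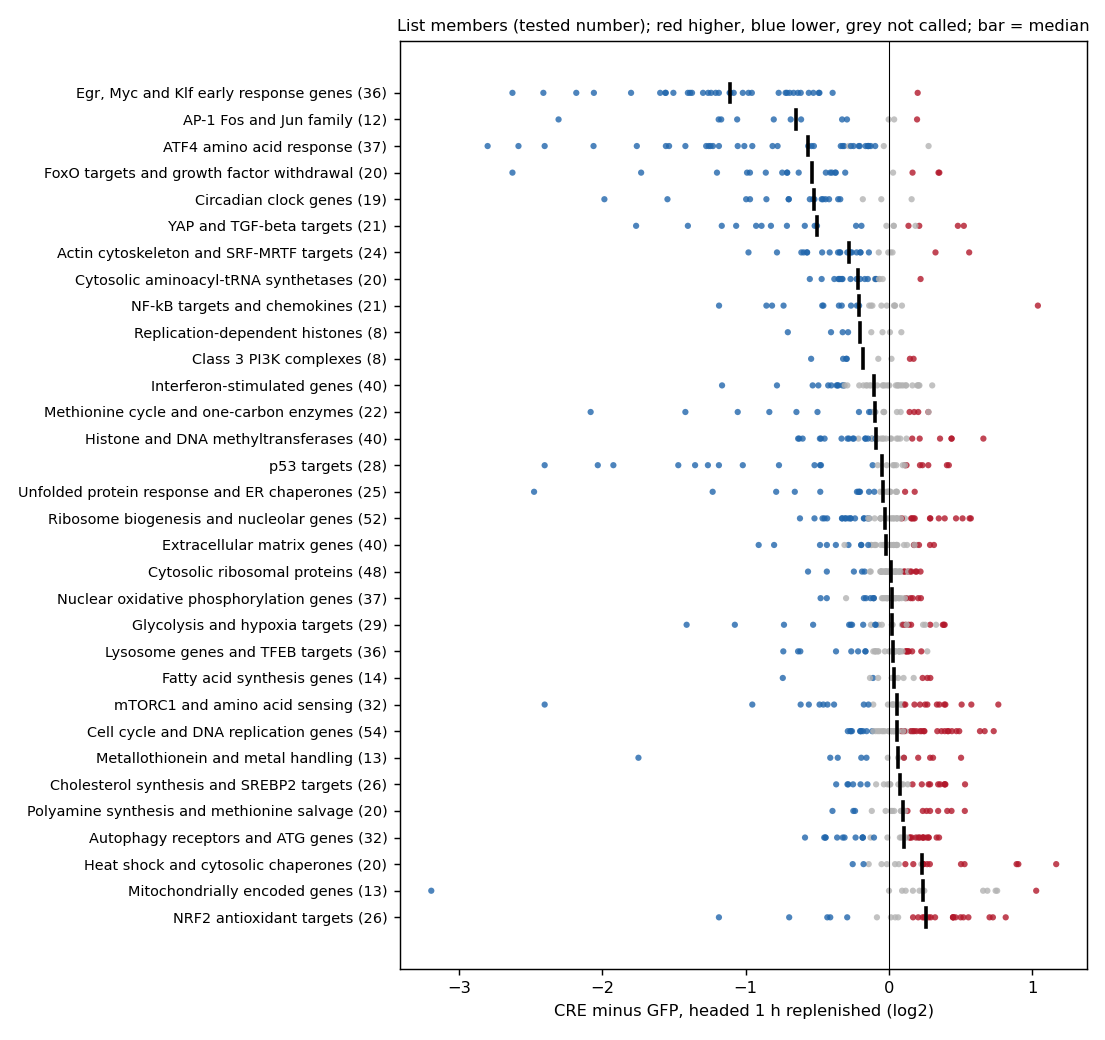
Difference CRE minus GFP (log2) of each tested member of 32 gene lists, sorted by median, with the number tested in brackets. Red points were higher and blue points lower past a limma adjusted p of 0.05, grey points were not called, and black bars are medians, from -1.11 in the early response list to 0.26 in NRF2 targets.

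Several lists held calls in both directions. Of 32 autophagy genes 14 were higher and 12 lower, both above the 26.9% and 28.1% of all tested genes, with a median of 0.11. Atg2a rose by 0.35 while Rb1cc1 fell by 0.59, Nbr1 by 0.44 and Wipi2 by 0.32, and Sqstm1, the p62 receptor, read 14.90, 14.82 and 14.85 against 15.09, 15.07 and 15.11. The Sqstm1 groups did not overlap and differed by -0.23 (SE 0.03, limma adjusted p = 2.4e-07). Among 36 lysosome genes and TFEB targets 7 were higher and 8 lower, and among 32 genes of mTORC1 and amino acid sensing 13 were higher and 10 lower. In the latter list Rptor was 0.58 higher and Sesn2, named above, 2.40 lower. The TFEB regulators Fnip1 (-0.74), Fnip2 (-0.62) and Flcn (-0.37) were also lower.

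Of 52 ribosome biogenesis genes 13 were higher and 17 lower, beside 26.9% and 28.1% of all tested genes. They ranged from Grwd1 (0.57) and Ubtf (0.56) to Gnl3 (-0.62) and Wdr43 (-0.52). Cytosolic ribosomal proteins were called higher in 8 of 48 cases and lower in 5, with a median of 0.01. The exceptions in size were Rpl27 (-0.56) and Rps23 (-0.43), genes with many processed copies in the genome. Of 26 cholesterol synthesis genes 10 were higher and 6 lower, with Nsdhl (0.53) and Dhcr7 (0.39) higher and Cyp51 (-0.37) lower. For fatty acid synthesis the counts were 3 higher and 2 lower of 14, with Fasn at 0.27, Scd2 at 0.29 and Lpin1 at -0.74. In the glycolysis and hypoxia list 8 of 29 were higher and 10 lower, with Vegfa (-1.41), Ndrg1 (-1.08) and Hk2 (-0.73) lower.

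Of 37 nuclear genes of oxidative phosphorylation 5 were higher and 7 lower, both below the 26.9% and 28.1% of all tested genes. In the extracellular matrix list 4 of 40 were higher and 9 lower, Loxl1 at 0.31 and Has2 at -0.91 among them. For metal-handling genes there were 5 higher and 5 lower of 13, with the zinc exporter Slc30a1 1.75 lower and the importers Slc39a10 and Slc39a1 0.50 and 0.31 higher.

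Mitochondrially encoded genes held both the largest decrease of any tested gene and 1 of the 15 largest increases. ND3, a subunit of complex I, read 6.48, 6.29 and 6.55 in the CRE columns against 9.51, 9.47 and 9.92 in the GFP columns, from 47 to 62 against 680 to 947 counts. The difference was -3.20 (SE 0.22, limma adjusted p = 6.8e-10) on the deposited scale, which narrows differences at low counts, and -3.81 by edgeR on the recovered counts. ND2, another complex I subunit, was 1.03 higher (SE 0.24, limma adjusted p = 0.0013), and the other 11 mitochondrial genes did not pass, with differences from 0.00 for ND4 to 0.76 for ATP8. Calls for 3 of them depended on the fit. ATP8 (0.76) passed by edgeR (adjusted p = 0.039) and DESeq2 (adjusted p = 0.028) on the recovered counts, as did COX3 (0.75; adjusted p = 0.036 and 0.027). With CRE 4 h replicate 3 left out of the limma fit, the adjusted p was 5.1e-06 for ATP8, 3.3e-06 for COX3 and 1e-05 for COX2 (0.69). All mitochondrial messages are cut from long shared transcripts. Over the 24 columns ND3 lay between 9.47 and 10.25 in the 6 headed GFP at 1 h or 4 h and between 5.80 and 7.03 in the other 18. ND2 lay between 13.25 and 13.45 in those same 6 and between 14.07 and 14.53 elsewhere, save for CRE 4 h replicate 3 at 13.11. By position those 6 columns are the wild-type and knockout cells deprived of methionine.

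The differences headed 1 h ran opposite to those headed basal and deprived, and alongside those headed 4 h. Of the 184 called genes that differed by over 1 at 1 h, 174 had the opposite sign headed basal, 179 headed deprived and 0 headed 4 h. Across the 13914 tested genes, which are not independent replicates, Pearson's r with the difference at 1 h was -0.56 for basal, -0.60 for deprived and 0.87 for 4 h; no library is shared between these contrasts. The difference at 1 h departed from that at basal in 8901 genes (64% of those tested), from that deprived in 9257 (66.5%), and from that at 4 h in 994 (7.14%), by limma's interaction test at an adjusted p under 0.05. It was higher than at basal in 4497 genes (32.3%) and lower in 4404 (31.7%), and higher than deprived in 4658 (33.5%) and lower in 4599 (33.1%). Against 4 h it was higher in 403 (2.9%) and lower in 591 (4.25%). Without CRE 4 h replicate 3, whose counts disagreed with those of its replicates, the counts against 4 h were 360 higher and 444 lower. The r of 0.87 is given with that library included. As headed, CRE minus GFP had opposite signs in deprived cells and after 1 h of methionine for those 179 genes. By position, the contrasts headed 1 h and 4 h are the same change, 4 h of methionine minus deprivation, in wild-type and in knockout cells, and those headed basal and deprived are 1 h of methionine minus basal medium.

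**Figure D5:**
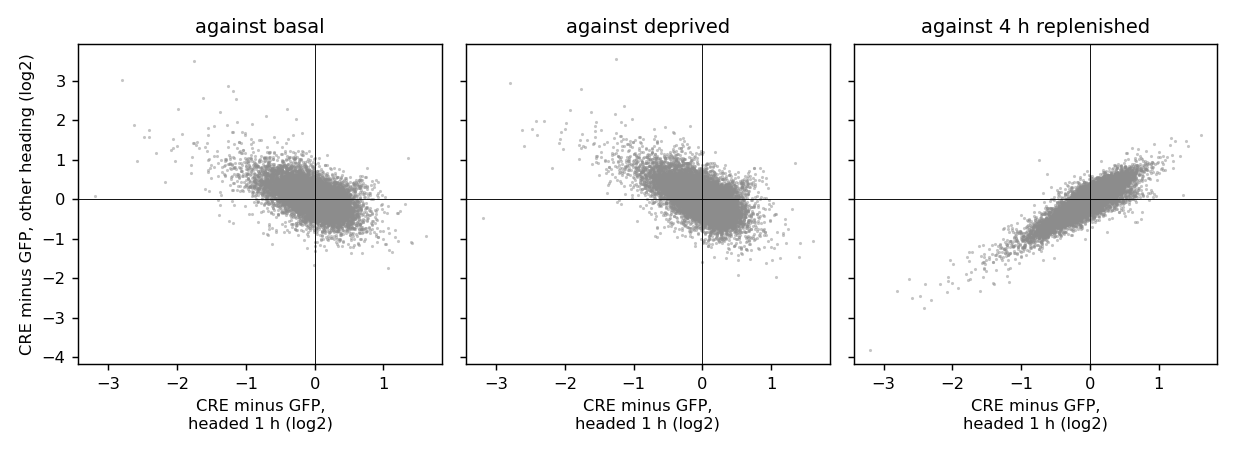
CRE minus GFP (log2) headed basal, deprived and 4 h replenished against that headed 1 h replenished, each point 1 of the tested genes. The clouds slope downward against basal and deprived (r of -0.56 and -0.60) and upward against 4 h (r of 0.87).

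Between the headings 1 h and 4 h, the departures were counted over the same lists, beside 2.9% of all tested genes higher and 4.25% lower at 1 h than at 4 h. Higher and lower refer here to the CRE minus GFP difference, not to the level of a gene. The list counts and medians include CRE 4 h replicate 3, whose counts disagreed with those of its replicates. By position, these departures compare wild-type cells (headed 1 h) with knockout cells (headed 4 h) for the same change, 4 h of methionine minus deprivation. Of 36 early response genes 21 were higher at 1 h and 1 lower, with a median departure of 0.25. Their median difference was below 0 at both headings, at -1.11 headed 1 h and -1.31 headed 4 h. In the AP-1 family 7 of 12 were higher and 1 lower, among YAP and TGF-beta targets 8 of 21 and 1, and among NF-kB targets 6 of 21 and 1. The difference of cytosolic ribosomal proteins was lower at 1 h in 22 of 48 cases and higher in 0. Their median departure was -0.23, with median differences of 0.01 headed 1 h and 0.27 headed 4 h. ATF4 response genes were lower in 9 of 37 cases and higher in 1. Lower at 1 h were also 8 of 26 cholesterol synthesis genes, 8 of 37 nuclear genes of oxidative phosphorylation and 6 of 26 NRF2 targets, with 0 higher in each.

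The 8 largest departures in each direction among genes at or above the median level were picked by size, and not by the rule for named genes. By position, 1 h and 4 h stand here too for wild-type and knockout cells. The pseudogene Rps2-ps10 was 1.35 higher in CRE at 1 h and 0.10 higher at 4 h. The clock repressor Bhlhe40 was 0.53 lower in CRE at 1 h and 1.48 lower at 4 h (limma interaction, adjusted p = 2.9e-09). The early response genes Lif (-1.39 against -2.16), Zfp36 (-1.21 against -1.94), Egr3 (-1.60 against -2.32) and Ccn1 (-1.40 against -2.11) were less far below GFP at 1 h. Id3, a BMP target, and Fst, follistatin, were higher in CRE at 1 h (0.48 and 0.32) and lower at 4 h (-0.28 for each). In the other direction, Hmgcs1 of cholesterol synthesis was 0.16 higher at 1 h and 0.96 higher at 4 h (limma interaction, adjusted p = 1e-09). Gadd45a, a member of the early response list (-2.63 against -2.02), and Ddit3 of the ATF4 list (-1.01 against -0.41) were further below GFP at 1 h. The ribosomal protein genes Rpl27 (-0.56 against 0.31) and Rps23 (-0.43 against 0.27) changed sign. The remaining 3 were Sec61g (-0.45 against 0.18, the latter not past the threshold), Ptgfr (-0.14, not past the threshold, against 0.55) and Slc5a3 (0.52 against 1.16).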

How the data were processed

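Libraries were poly-A selected RNA, sequenced as pairs after a dUTP second strand, per the labels' protocols. The authors deposited, for the 24 MEF libraries, log2-scale variance-stabilized values, and for 12 liver libraries raw counts, which were not used here beyond checking their totals. Reads were aligned with STAR 2.7.10b to mm10 and handled with featureCounts, DESeq2 and limma, per the submitters' processing notes, with the strand setting not given in the sources used here. Antisense and overlapping genes may therefore share reads. Inverting the deposited log2 values gave whole counts for every value within a tolerance of 0.01.

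Genes were tested when their mean over 24 libraries was at least 1 above the table's lowest value (4.17). The values of all 8 groups of 3 entered 1 limma 3.58.1 fit (trend, robust) in R 4.3.3, and adjusted p-values (Benjamini-Hochberg) covered all tested genes. A difference is CRE minus GFP on the log2 scale. Alternatives used edgeR 4.0.16, DESeq2 1.42.0, other scaling, filters and left-out libraries. Named genes were 6 fixed genes, up to 5 members of each list with the smallest p, and the 15 largest rises and 15 largest falls among non-overlapping genes at or above the median level. The comparison, members and lists were chosen with earlier results of these data known. The fit was also run on simulated data in which far fewer genes differed than were called here. That run does not show how the fit performs on these data.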

Additional observations from a re-analysis of the deposited data

Results flagged for a closer look

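The CRE minus GFP difference headed 1 h departed from those at other headings by limma's interaction test in 8901 genes against basal, 9257 against deprived and 994 against 4 h. Atf4 departed by -2.54 from basal and -2.63 from deprived, Mat2a by -3.34 and -3.50, Nr1d1 by -1.89 and -2.21, and Sqstm1 by -0.98 and -0.76. Pik3c3 departed from deprived by 0.37.

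Against 4 h, departures are given for 61 genes: every gene chosen by the rule for named genes that passed, and the 8 largest in each direction at or above the median level. A departure is the CRE minus GFP difference headed 1 h minus that headed 4 h. By position it is the change in wild-type cells minus that in knockout cells. Higher at 1 h than at 4 h were Rps2-ps10 (1.25), Bhlhe40 (0.96), Lif (0.77), Id3 (0.76), Zfp36 (0.73), Egr3 (0.72), Ccn1 (0.71), Fst (0.60), Tnfaip3 (0.57), Nr1d1 (0.52), Trib1 (0.51), Hk2 (0.47), Fnip2 (0.45), Per2 (0.44), Flcn (0.37), Kmt5b (0.36), Myc (0.34), Ern1 (0.34), Plk2 (0.32), Amotl2 (0.32), Mafk (0.31), Mdm2 (0.27), Fosl2 (0.26), Fnip1 (0.25), Junb (0.25), Camkk2 (0.23), Actb (0.20), Egr1 (0.19) and Hsp90ab1 (0.15). Lower at 1 h were Rpl27 (-0.88), Hmgcs1 (-0.79), Rps23 (-0.71), Ptgfr (-0.69), Cxcl5 (-0.68), Slc5a3 (-0.64), Sec61g (-0.64), Gadd45a (-0.61), Ddit3 (-0.60), Trp53inp1 (-0.50), Cdkn1a (-0.49), Chac1 (-0.48), Jdp2 (-0.44), Hmox1 (-0.44), Rps7 (-0.40), Dhcr7 (-0.40), Nqo1 (-0.40), Slc1a4 (-0.39), Srxn1 (-0.36), Ciart (-0.35), Rps24 (-0.34), Atg12 (-0.31), Ccng2 (-0.30), Cyp51 (-0.28), Mthfd2 (-0.27), Sesn2 (-0.26), Scd2 (-0.24), Chpf2 (-0.23), Ftl1 (-0.21), Sdhd (-0.20), Nbr1 (-0.20) and Pdlim2 (-0.19). Of the 61, 45 stayed past 0.05 with the same sign in all 19 alternatives run. Calls were lost in at least 1 alternative for Actb, Camkk2, Chpf2, Ciart, Egr1, Ern1, Fnip1, Fosl2, Hsp90ab1, Junb, Nbr1, Pdlim2, Per2, Sdhd, Sesn2 and Slc5a3, and 0 changed sign.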

How the results depend on the processing

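The counts at 1 h stayed within 1.5 times of 3745 higher and 3913 lower in every alternative run. They were 3601 and 4037 by edgeR and 3506 and 3704 by DESeq2 on the recovered counts. Leaving out 1 of the 6 libraries gave 3354 to 3528 higher and 3555 to 3725 lower. Without CRE 4 h replicate 3, outside the contrast and added after seeing the data because its mitochondrial values stand apart, they were 3975 and 4080. Its counts also disagreed with those of its replicates. Chi-square per degree of freedom over genes was 20.04 against CRE 4 h replicate 1 and 18.03 against replicate 2. Replicates 1 and 2 gave 2.11 with each other, and no pair within the other groups exceeded 5.14. How much of this came from mitochondrial genes was not tested. Against basal, leaving out 1 of 12 libraries gave 4302 to 4423 higher and 4262 to 4334 lower, and against deprived 4461 to 4586 and 4462 to 4544. Against 4 h the counts depended on the fit: 403 higher and 591 lower became 260 and 386 with no filter on low values, 189 and 288 with only the 12 libraries compared, and 245 to 476 and 334 to 684 when 1 of 12 libraries was left out. The lowest came without GFP 4 h replicate 3 (245 higher) and without CRE 1 h replicate 3 (257 higher, 334 lower), and without CRE 1 h replicate 2 there were 393 lower. The median shift turned the splits to 5878 and 3433 against basal, 6107 and 3660 against deprived and 536 and 395 against 4 h. The cause was not tested.

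Of 170 named genes past 0.05, 164 kept call and sign in every alternative run and 0 changed sign. Calls were lost in at least 1 for H1f3, H1f5, Pik3r4, Rsad2, Srebf1 and Tap1, and ATP8, COX2 and COX3 gained one. ATP8 and COX3 gained it with the median shift, without the trend, with only the groups compared, by edgeR, by DESeq2 and without CRE 4 h replicate 3, and COX2 with only the groups compared and without that library.

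The replicate numbers are shared between groups. Deviations of same-numbered CRE and GFP libraries correlated at 0.03 to 0.09 over genes, against -0.08 to -0.01 for other pairs, so every library correlated best with its own number. Deviations from a group mean cancel out within the group, so positive values for some pairs come with negative ones for others. The main fit did not pair the libraries. With the replicate block the counts were 3795 higher and 3956 lower at 1 h, 4530 and 4426 against basal, 4707 and 4624 against deprived, and 441 and 687 against 4 h.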
